A study of Mus musculus with 12 samples.

Results

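The 58 genes described here build, move and separate chromosomes during mitosis, and they were followed in neonatal mouse cardiac fibroblasts on the way to induced endothelial cells. They were the rows of the deposited bulk RNAseq count table whose Ensembl ID carried 1 of 58 named mouse symbols in the GENCODE annotation of GRCm38. All 58 were found among the 35727 genes of the table, and all 58 passed the filter on low counts, which left 15506 genes to test. In both groups most of these genes were far lower at 4 weeks than at Day 3. As the mean of the 3 time points, 41 of the 58 were higher in *Sox17*-*Erg* samples (22% of all genes) and 0 were lower (20.3%). Fewer members, and fewer of all genes, were called higher without *Sox17*-*Erg* number 2 of 4 weeks.

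The fibroblasts came from pooled hearts of newborn mice, and the study's methods name C57BL/6J and *Tcf21*-CreERT2 with *Rosa26*-tdTomato mice as sources without saying which gave these libraries. Cells were infected with retroviruses after isolation. *Sox17*-*Erg* samples received the transcription factors *Sox17* and *Erg*, and control samples are those whose columns begin with PMX, the name of the retroviral backbone, with no further account of what that virus carried. For the characterization of induced endothelial cells the study depleted PECAM1-positive cells, which include resident endothelial cells, during fibroblast isolation, and its protocol then kept cells bound by a THY1 antibody, a step that removes cells without this surface protein. Both groups were labelled as heart fibroblasts, were grown in EGM2 endothelial medium and were collected on Day 3, on Day 7 and after 4 weeks with 2 libraries each, 12 in all. The labels do not say whether the libraries with numbers 1 and 2 came from separate isolations, so p-values measure the spread between these libraries, which may be technical. The viral transgenes are not restricted to a cell type.

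A dividing cell condenses its DNA with condensin and disentangles it with topoisomerase, attaches each chromosome to spindle microtubules through the kinetochore that forms on centromeric CENP-A chromatin, and holds at a checkpoint until the attachments are right. The anaphase-promoting complex with CDC20 then releases separase, the sister chromatids part, and kinesins and a contractile ring complete division. Most of these genes are transcribed in a wave in late G2 through MuvB with B-Myb and FOXM1 and are held down in resting cells by the DREAM complex, through a cell cycle homology region (CHR) near the start site and CCAAT boxes bound by NF-Y. Cardiac fibroblasts divide around birth and become largely quiescent after the neonatal period.

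To show these promoter elements, 100 bases upstream of the RefSeq start (GRCm38.p6) are printed for 8 members, 6 with a CHR and 2 without, 5′ to 3′ on the gene's strand. Capitals mark the CHR letters TTTGAA, the CCAAT box CCAAT, and the reverse of each, TTCAAA and ATTGG. The windows lie at chr11:99024190-99024289 (minus strand) for *Top2a*, chr10:69352913-69353012 (minus) for *Cdk1*, chr4:118437344-118437443 (minus) for *Cdc20* and chr15:102296193-102296292 (plus) for *Espl1*. Those of the other 4 are chr19:37376282-37376381 (plus) for *Kif11*, chr7:135716380-135716479 (minus) for *Mki67*, chr2:127831860-127831959 (minus) for *Bub1* and chr2:127133955-127134054 (minus) for *Ncaph*.
*Top2a*: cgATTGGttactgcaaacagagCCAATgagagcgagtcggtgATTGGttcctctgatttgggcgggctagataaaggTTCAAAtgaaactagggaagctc
*Cdk1*: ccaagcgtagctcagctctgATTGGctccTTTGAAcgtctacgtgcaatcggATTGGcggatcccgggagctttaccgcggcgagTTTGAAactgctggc
*Cdc20*: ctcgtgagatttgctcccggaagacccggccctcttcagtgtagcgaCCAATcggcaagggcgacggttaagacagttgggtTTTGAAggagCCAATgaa
*Espl1*: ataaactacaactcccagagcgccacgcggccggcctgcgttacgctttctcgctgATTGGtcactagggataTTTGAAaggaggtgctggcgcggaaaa
*Kif11*: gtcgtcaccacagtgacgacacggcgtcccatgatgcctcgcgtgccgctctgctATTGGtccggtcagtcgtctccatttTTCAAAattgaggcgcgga
*Mki67*: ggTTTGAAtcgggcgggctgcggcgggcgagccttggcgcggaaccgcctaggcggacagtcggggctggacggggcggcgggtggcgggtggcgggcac
*Bub1*: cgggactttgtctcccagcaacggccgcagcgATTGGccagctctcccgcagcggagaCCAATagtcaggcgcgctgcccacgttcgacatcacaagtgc
*Ncaph*: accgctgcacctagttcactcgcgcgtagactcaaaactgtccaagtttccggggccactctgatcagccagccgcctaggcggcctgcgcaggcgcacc

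*Top2a* held 3 CCAAT boxes and a CHR whose first base lay at -23 from the start, and *Cdc20*, *Espl1* and *Kif11* held the same pair of elements with the CHR at -18, -27 and -19. *Cdk1* had 2 of each. *Bub1* had 2 CCAAT boxes and no CHR in this stretch, *Mki67* a CHR at -98 and no CCAAT box, and *Ncaph* neither. Over windows from 250 bases before to 50 after the start, 48 of the 58 members matched a RefSeq entry, with 52 windows. The letters TTTGAA, searched on both strands, were in 34 of the 52 (65.4%) and in 17.9% of all 32851 windows of the same length. From 50 bases before the start onward they were in 31 (59.6%) against 4.94%. CCAAT, on both strands, was in 40 (76.9%) against 37.4%, and both elements together were in 30 (57.7%) against 6.95%. The CHR variant TTTAAA, whose letters cannot overlap those of the CHR but can share 1 base with a CCAAT box, was in 9 windows (17.3%) against 13.2%. A match is a description of the letters and not a bound site. The 10 members not matched were *Spc24*, *Zwilch*, *Cdc25c*, *Ccna2*, *Incenp*, *Aurkb*, *Kif20a*, *Smc4*, *Foxm1* and *Tpx2*.

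**Figure D1:**
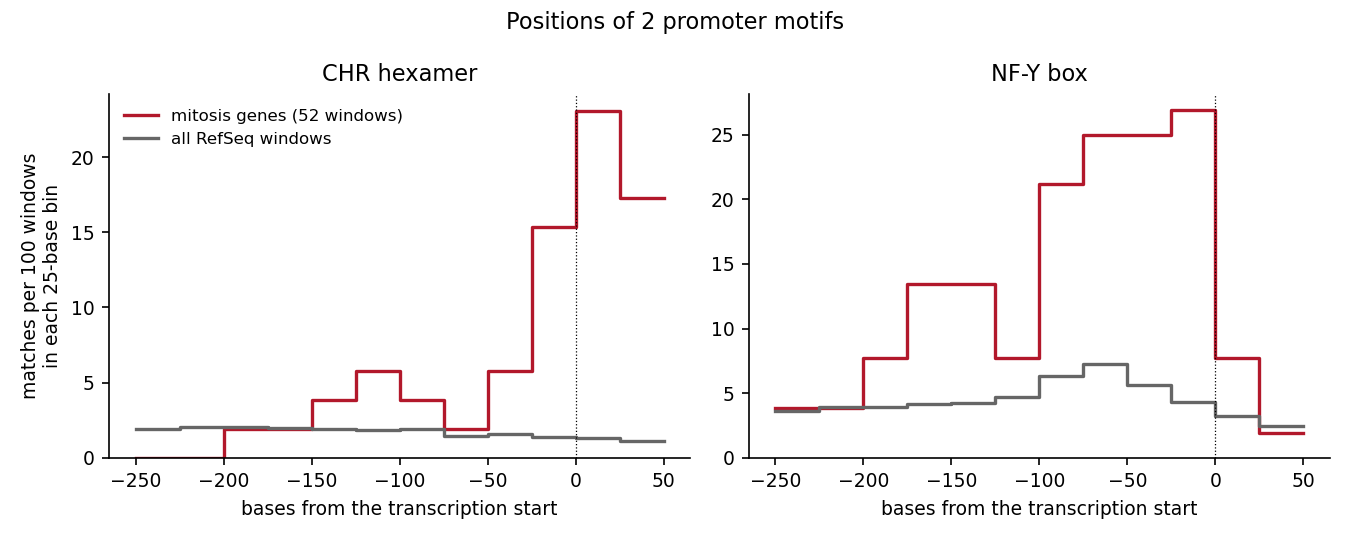
Matches per 100 windows of the CHR hexamer (TTTGAA, left) and the CCAAT box (right) in 25-base bins, by distance in bases from the transcription start, in the 52 windows of mitosis genes (red) and all 32851 RefSeq windows (grey). In the first 25 bases after the start the CHR had 23.1 matches per 100 member windows and 1.34 per 100 of all, and in the 25 bases before it the CCAAT box had 26.9 and 4.33.

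The fold changes of members with and without these letters overlapped. The 32 members with a CHR had a median of 1.26 (0.44 to 1.67) for the log2 fold change of *Sox17*-*Erg* over control, as the mean of 3 time points, and the 16 without had 0.98 (0.15 to 1.69). For the CCAAT box the medians were 1.27 in 36 members with it and 1.07 in 12 without. *Bub1*, with the highest mean fold change of all members, had no CHR within its window.

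Library totals ran from 19011635 to 41240449 counts, and the lowest count of any member in any library was 9, so none was at the limit of detection. Levels are given as CPM, counts scaled to a common library size after TMM normalization. *Sox17* was at 0.416 CPM or less in control libraries and 432 to 1036 in *Sox17*-*Erg* libraries, and *Erg* at 0.0728 to 2.27 and 17.1 to 65.2. The fibroblast genes *Thy1*, *Tcf21* and *Pdgfra* were detected in all libraries, with *Tcf21* at 179 and 256 CPM in control and 15 and 46.6 in *Sox17*-*Erg* libraries at Day 3. Summed over 8 endothelial markers, control libraries had 16.4 to 58.5 CPM and *Sox17*-*Erg* libraries 335 to 769. Control number 2 was above number 1 at Day 3 (58.5 and 26.8) and Day 7 (44.4 and 18.9), as was *Cdh5*, an endothelial cadherin (14.3 and 0.910, and 8.08 and 0.230). The 7 fibroblast markers summed to 10025 to 39072 CPM over all libraries, with 1, 2 and 3 lower and 0, 1 and 1 higher in *Sox17*-*Erg* samples in order of time. At Day 3 the sums overlapped, at 29710 and 35679 CPM in control and 25123 and 39072 in *Sox17*-*Erg* libraries. At Day 7 they were higher in *Sox17*-*Erg* libraries (29648 and 30716 against 19348 and 23724 in control). At 4 weeks they were lower (10025 and 10893 against 13154 and 11810). Macrophage markers (8 genes, none at 0 in all libraries) summed to 46.4 to 1257 CPM in control and 63.2 to 429 in *Sox17*-*Erg* libraries, with 0 of 8 called between the groups at each time point. At Day 7 the sums were 849 and 1257 CPM in control against 258 and 429 in *Sox17*-*Erg* libraries, with a median log2 fold change of -1.42 and 8 of 8 below 0. Cardiomyocyte markers (8) summed to 334 to 1525 CPM and mesothelial markers (6) to 130 to 1449, and both were lower in *Sox17*-*Erg* samples in some members (in time order 1, 3 and 5 of 8, and 1, 4 and 6 of 6). Their part in the results below was not tested. In bulk samples, fewer dividing cells and less of an RNA per dividing cell cannot be told apart.

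Together the 58 genes made up 1612 and 1332 CPM in the control libraries at Day 3, numbers 1 and 2, against 3822 and 3208 in *Sox17*-*Erg* libraries. At Day 7 the sums were 1581 and 627 in control and 2402 and 1045 in *Sox17*-*Erg* libraries. By 4 weeks they were 278 and 284 in control and 390 and 806 in *Sox17*-*Erg* libraries. The groups were apart at Day 3 and 4 weeks and interleaved at Day 7, where number 1 was above number 2 in both. At Day 7 number 1 exceeded number 2 in 58 of 58 members in each group, by a median of 2.89-fold in control and 2.3-fold in *Sox17*-*Erg* samples. At 4 weeks the *Sox17*-*Erg* library with number 2 exceeded number 1 in 57 of 58, by 2.54-fold, while in control libraries number 1 was higher in 33 of 58, with a median of 1.08-fold. Across all genes 48.4%, 49.5% and 48.8% were higher in number 1 in control and *Sox17*-*Erg* samples at Day 7 and in *Sox17*-*Erg* samples at 4 weeks. The macrophage marker sum also differed between the 4-week *Sox17*-*Erg* libraries, at 63.2 and 316 CPM, and between the 4-week control libraries, at 46.4 and 407, and its part in the members' spread was not tested.

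**Figure D2:**
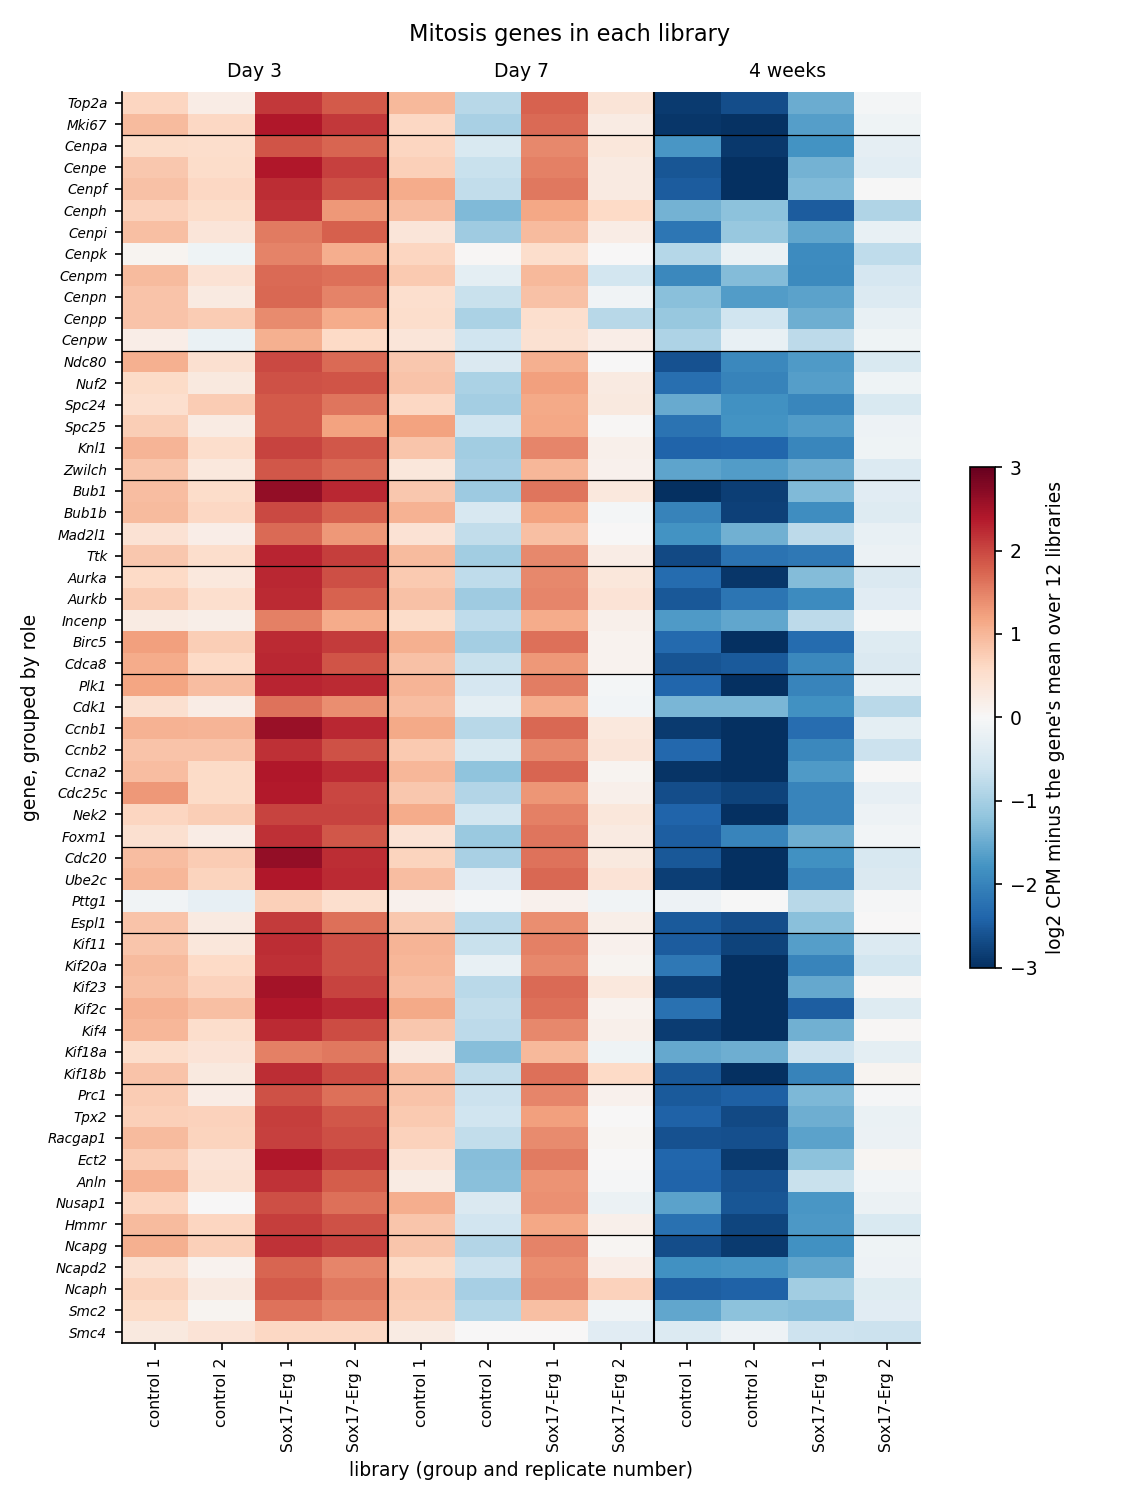
Each of the 58 genes (rows, grouped by role) in each of the 12 libraries (columns), as log2 CPM minus the gene's mean over the libraries; the color scale stops at -3 and 3. The *Sox17*-*Erg* Day 3 columns are the reddest and the control 4-week columns the bluest. At Day 7 number 2 is lower on the scale than number 1 in both groups, and *Smc4* and *Pttg1* stay near 0 throughout.

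The members moved together over the 12 libraries, whose correlations also carry the differences between groups and time points. The Pearson correlation of log2 CPM had a median of 0.972 over the 1653 pairs of members, and 82.5% of pairs were above 0.9. *Kif11*, the kinesin that pushes spindle poles apart, was the most like the rest (r = 0.998 with the mean of the other 57). Those least like the rest were *Pttg1* (0.662), *Smc4* (0.736), *Cenpk* (0.794), *Cenpp* (0.871), *Cenpw* (0.884) and *Cenph* (0.918). These values are a description over 12 libraries and are not a test.

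The first comparison asked whether the mitotic genes differed between *Sox17*-*Erg* and control cultures at each time point. At Day 3 both *Sox17*-*Erg* libraries were above both control libraries in 58 of 58 members, where 34.1% of all tested genes were, and the median log2 fold change was 1.25 (0.27 to 1.72) against 0.01 over all genes. With the 6 groups sharing 1 estimate of the spread, edgeR called 0 of 58 higher at an adjusted p under 0.05, where it called 7.19% of all genes, although 26 had an unadjusted p under 0.05, DESeq2 called 11 (9.37% of all genes) and edgeR without a filter on low counts called 52 (5.91%). On leaving out single libraries the median log2 fold change of the members at Day 3 ran from 1.07 to 1.45. When libraries of the same number were paired within each time point as a replicate block, 41 of 58 were higher and 0 lower (12.7% of all genes were higher), as the median standard error fell from 0.58 to 0.29. With the number as a block over all libraries instead, 1 of 58 was called (7.93% of all genes), and 30 (11%) with the numbers also crossed at 4 weeks, an alternative chosen after seeing the data. In what follows, the block is the one within time points.

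At Day 7 the members were least apart. The median log2 fold change was 0.70 (-0.29 to 1.22), 0 of 58 members had both *Sox17*-*Erg* libraries above both control libraries (29.0% of all genes), and *Smc4* had both below. edgeR called 0 higher (9.48% of all genes), with 0 at an unadjusted p under 0.05, and DESeq2 called 0, where it called 1659 of 15224 genes. Within the same number, *Sox17*-*Erg* was above control in 53 of 58 members for number 1 (51.8% of all genes), by a median of 1.48-fold. For number 2 it was above in 54 (49.6% of all genes), by 1.89-fold. With the block 12 members were higher (13.8% of all genes), namely *Mki67*, *Top2a*, *Cenpi*, *Bub1*, *Mad2l1*, *Aurkb*, *Incenp*, *Foxm1*, *Kif18a*, *Ect2*, *Anln* and *Ncaph*. The median without a block rested on single libraries and was -0.04 without *Sox17*-*Erg* number 1, 0.10 without control number 2, 1.64 without control number 1 and 1.11 without *Sox17*-*Erg* number 2.

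At 4 weeks the median was the highest of the 3 time points at 1.58 (-0.73 to 2.65), and 13 of 58 members were higher (11.9% of all genes) and 0 lower. The 13 were *Top2a*, *Mki67*, *Cenpe*, *Cenpf*, *Bub1*, *Ube2c*, *Espl1*, *Kif23*, *Kif4*, *Prc1*, *Tpx2*, *Anln* and *Ncaph*, and all 13 were also called with the block, which called 37 higher (15.5% of all genes) and 1, *Smc4*, lower. DESeq2 called 32 higher (13.1% of all genes). Both *Sox17*-*Erg* libraries were above both control libraries in 43 members (30.3% of all genes). The pairs differed in size, with a median of 1.49-fold for number 1, higher in 47 of 58 (47.6% of all genes). For number 2 it was 4.99-fold, higher in 55 (49.4% of all genes). Without *Sox17*-*Erg* number 2 the median was 0.69 and 0 were called. Without either control library of that time point 0 were called as well, and without 1 of the 4 Day 3 libraries 2 or 3 were, against 21 without control number 1 at Day 7.

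As the mean of the 3 time points, 41 of 58 members were higher (22% of all genes) and 0 lower (20.3% of all genes), with a median log2 fold change of 1.18 (-0.13 to 1.69). The block called 52 (25.5% of all genes), among them all 41. Of the 39 members with a mean log2 fold change above 1, *Bub1* was the highest at 1.69. The count without a block dropped most without *Sox17*-*Erg* number 2 at 4 weeks. It also dropped without *Sox17*-*Erg* number 1 at Day 3 or Day 7 and without control number 2 at Day 3 or 4 weeks. In each of these fits, which left 1 library in a group, fewer of all genes were higher as well.

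**Figure D3:**
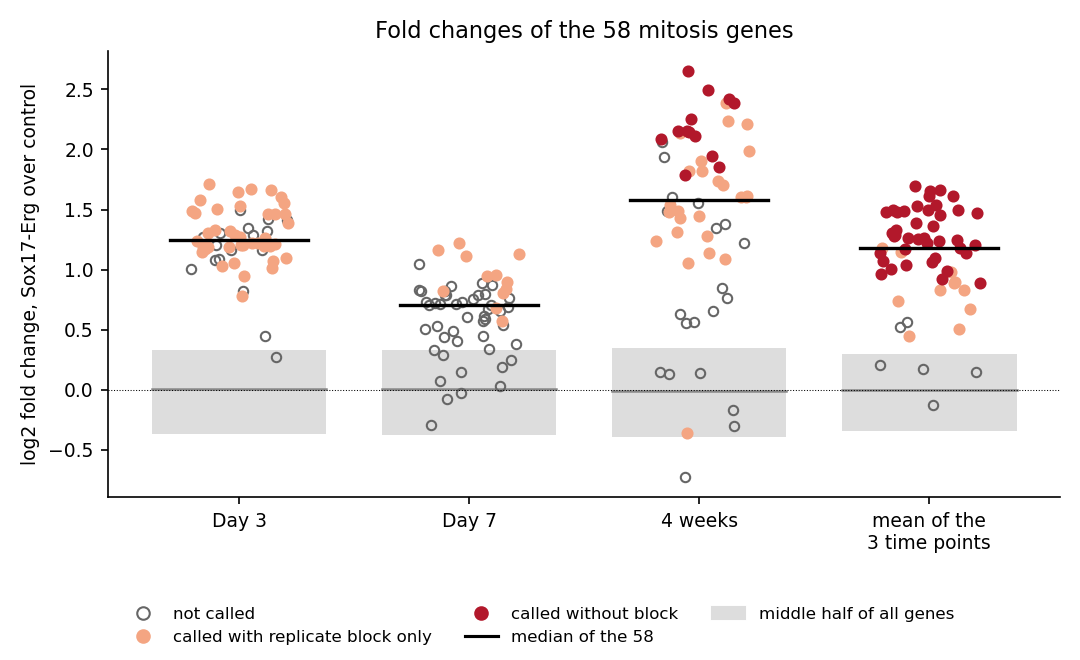
Log2 fold change of *Sox17*-*Erg* over control for each of the 58 genes (points) at 3 time points and as their mean, with their median (black line) and the span from the lower to the upper quartile of all genes (grey box). Filled points passed an adjusted p under 0.05 without a block (red) or only with the replicate number as a block within time points (orange); the medians are 1.25, 0.70, 1.58 and 1.18, and the orange point below 0 at 4 weeks is *Smc4*.

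*Mki67*, whose protein coats mitotic chromosomes and marks dividing cells, lies at chr7:135689784-135716361 in GRCm38. Control libraries held 172 and 136 CPM on Day 3, then 136 and 45.0, and at last 11.7 and 11.3. In *Sox17*-*Erg* libraries the levels were 467 and 383, 287 and 105, and 28.5 and 81.3 CPM. The groups were apart at Day 3 and 4 weeks and overlapped at Day 7, where each *Sox17*-*Erg* library exceeded the control library of its own number. The log2 fold change was 1.46 ± 0.63 (SE) on Day 3, then 1.11 ± 0.62 and 2.25 ± 0.66, with adjusted p-values by edgeR of 0.152, 0.254 and 0.0364, and with the block of 0.0151, 0.0296 and 0.00376. *Top2a*, the topoisomerase that untangles sister DNA, went from 105 and 78.4 CPM in control to 290 and 239 in *Sox17*-*Erg* libraries at Day 3. At 4 weeks it was at 9.17 and 10.7 CPM against 23.8 and 64.3, a log2 fold change of 2.15 ± 0.67 (adjusted p = 0.0471). Both 4-week calls were lost without *Sox17*-*Erg* number 2, where the log2 fold changes were 1.28 for *Mki67* and 1.24 for *Top2a*, and without either 4-week control or any Day 3 library.

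Of the 10 centromere proteins, 3 were higher as the mean of the time points (*Cenpa*, *Cenpe* and *Cenpf*) and 6 with the block. The 3 are 30% of the role, near the 22% of all genes, and 25.5% of all genes passed with the block. *Cenpa*, the histone H3 variant that marks the centromere, had 21.0 and 20.8 CPM in control and 52.9 and 48.1 in *Sox17*-*Erg* libraries at Day 3. Its 4-week libraries overlapped, at 4.23 and 1.91 against 4.14 and 11.9 CPM, and its mean log2 fold change was 1.14 ± 0.33 (adjusted p = 0.0205). That call was lost without control number 2 of Day 3 or 4 weeks, *Sox17*-*Erg* number 1 of Day 3 or Day 7, or *Sox17*-*Erg* number 2 of 4 weeks (0.80 to 1.13). *Cenpe*, a kinesin that carries chromosomes to the spindle equator, had 3.98 and 2.32 CPM in control and 8.78 and 19 in *Sox17*-*Erg* libraries at 4 weeks. The groups did not overlap there, and the log2 fold change was 2.11 ± 0.59 (adjusted p = 0.0308), lost without *Sox17*-*Erg* number 2 (1.42) or either control library of that time point (1.80 and 2.58). The inner kinetochore subunits *Cenph*, *Cenpi*, *Cenpk*, *Cenpm*, *Cenpn*, *Cenpp* and *Cenpw* overlapped between groups at 4 weeks.

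*Cenpk*, of the inner kinetochore, had fold changes of opposite sign at Day 3 and 4 weeks. It had 1.67 and 1.43 CPM in control and 4.45 and 3.36 in *Sox17*-*Erg* libraries at Day 3, and 0.877 and 1.38 against 0.425 and 0.926 at 4 weeks. *Sox17*-*Erg* libraries were above control at the first time point, while at the last the groups overlapped and each *Sox17*-*Erg* library was below the control library of its own number. The log2 fold changes were 1.32 ± 0.42 and -0.73 ± 0.45 (adjusted p = 0.0707 and 0.284). The change in effect from Day 3 to 4 weeks was -2.05 ± 0.62 (adjusted p = 0.123) and passed with the block at -2.11 ± 0.43 (adjusted p = 0.035).

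The outer kinetochore, whose NDC80 complex (*Ndc80*, *Nuf2*, *Spc24* and *Spc25*) grips microtubules with the scaffold *Knl1*, had 4 of 6 members higher as the mean of time points and 6 with the block (22% and 25.5% of all genes). *Nuf2* had 10.2 and 8.37 CPM in control and 25.8 and 25.5 in *Sox17*-*Erg* libraries at Day 3, and 1.43 and 1.71 against 2.19 and 6.22 at 4 weeks. It was apart at both, with a mean log2 fold change of 1.17 ± 0.35 (adjusted p = 0.0236). The call was lost without control number 2 of Day 3, control number 1 of 4 weeks, *Sox17*-*Erg* number 1 of Day 3 or Day 7, or *Sox17*-*Erg* number 2 of 4 weeks (0.84 to 1.14).

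Among the 4 spindle checkpoint genes, 3 were higher as the mean of time points and 4 with the block (22% and 25.5% of all genes). *Bub1*, the kinase that loads the checkpoint onto kinetochores, lies at chr2:127801122-127831865. It had 12 and 9.20 CPM in control and 39.2 and 30.4 in *Sox17*-*Erg* libraries at Day 3, and 11.1 and 2.97 against 19.2 and 7.82 at Day 7. At 4 weeks it had 0.551 and 0.895 CPM in control and 2.55 and 5.04 in *Sox17*-*Erg* libraries. The groups overlapped only at Day 7. The log2 fold changes were 1.72 ± 0.60, 0.94 ± 0.60 and 2.42 ± 0.72, with adjusted p-values of 0.0919, 0.314 and 0.0399, and with the block of 0.00186, 0.006 and 0.000511. The 4-week call without a block was lost without any 1 of the 8 libraries of Day 3 and 4 weeks, where the log2 fold change ran from 1.83 to 2.83. *Mad2l1*, which inhibits CDC20 until chromosomes attach, had a mean log2 fold change of 0.97 ± 0.23 (adjusted p = 0.0091).

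Of the Aurora kinases and the chromosomal passenger complex, which corrects faulty attachments, 4 of 5 members were higher as the mean of time points and 5 with the block (22% and 25.5% of all genes). *Aurka*, the centrosomal kinase, had 10.7 and 8.79 CPM in control and 33.9 and 27.1 in *Sox17*-*Erg* libraries at Day 3, and 1.43 and 0.935 against 2.87 and 5.19 at 4 weeks. Its mean log2 fold change was 1.39 ± 0.31 (adjusted p = 0.00602). *Aurkb*, the catalytic subunit of the passenger complex, had 12.3 and 10.2 against 34.2 and 24.9 CPM at Day 3, and 1.25 and 1.59 against 1.95 and 5.74 at 4 weeks. It did not overlap at either, and its mean log2 fold change was 1.22 ± 0.38 (adjusted p = 0.0275). That call was lost without any control library of Day 3 or 4 weeks, *Sox17*-*Erg* number 1 of Day 3 or Day 7, or *Sox17*-*Erg* number 2 of 4 weeks (0.87 to 1.27). *Birc5*, which encodes survivin, had 17.2 and 12.2 against 34.6 and 31.4 CPM at Day 3 and 1.45 and 0.895 against 1.49 and 5.59 at 4 weeks. Its mean log2 fold change of 1.14 ± 0.44 passed only with the block (adjusted p = 0.065 and 0.0123).

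Mitotic entry is driven by CDK1 with cyclins A and B, and 7 of these 8 genes were higher as the mean of time points (22% of all genes), the exception being *Cdk1* itself, and 8 with the block (25.5% of all genes), where *Cdk1* passed as well (0.48 ± 0.12, adjusted p = 0.0152). *Cdk1*, at chr10:69335146-69352938, had 41 and 34.4 CPM in control and 92.0 and 78.2 in *Sox17*-*Erg* libraries at Day 3. The levels were 56.0 and 23.9 against 62.9 and 28.0 at Day 7, and 11.5 and 11.4 against 8.32 and 17.0 at 4 weeks. Its groups were thus apart at Day 3 alone, with log2 fold changes of 1.17 ± 0.47, 0.19 ± 0.47 and 0.14 ± 0.48 (adjusted p = 0.132, 0.816 and 0.87, and 0.00914 at Day 3 with the block). *Ccnb1*, the B-type cyclin that activates CDK1, had 27.5 and 27.3 against 81.6 and 64.8 CPM at Day 3 and 1.83 and 0.976 against 2.76 and 10.9 at 4 weeks. The groups did not overlap at these times, and the mean log2 fold change was 1.46 ± 0.44 (adjusted p = 0.025). It was lost without either control library of Day 3, control number 2 of 4 weeks, *Sox17*-*Erg* number 1 of Day 3 or Day 7, or *Sox17*-*Erg* number 2 of 4 weeks (1.0 to 1.46). *Plk1*, a kinase of spindle assembly, had 24.6 and 20.5 against 52.9 and 50.8 CPM at Day 3 and 2.08 and 0.651 against 2.73 and 9.33 at 4 weeks. Its mean log2 fold change was 1.26 ± 0.42 (adjusted p = 0.0392), lost without any Day 3 library, control number 2 of Day 7 or 4 weeks, *Sox17*-*Erg* number 1 of Day 7 or number 2 of 4 weeks (0.86 to 1.30).

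*Foxm1* encodes the transcription factor that drives the G2 and mitosis wave. It had 25.8 and 21.2 CPM in control and 83.5 and 66.2 in *Sox17*-*Erg* libraries at Day 3. At Day 7 it had 24.9 and 8.52 against 55.6 and 22.2, and at 4 weeks 3.31 and 4.68 against 6.69 and 17.4. Its *Sox17*-*Erg* libraries exceeded the control library of the same number at each time point. The log2 fold changes were 1.67 ± 0.59, 1.22 ± 0.59 and 1.61 ± 0.63 (adjusted p = 0.0955, 0.19 and 0.098, and with the block 0.00238, 0.00354 and 0.00226). The mean was 1.5 ± 0.35 (adjusted p = 0.00767).

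**Figure D4:**
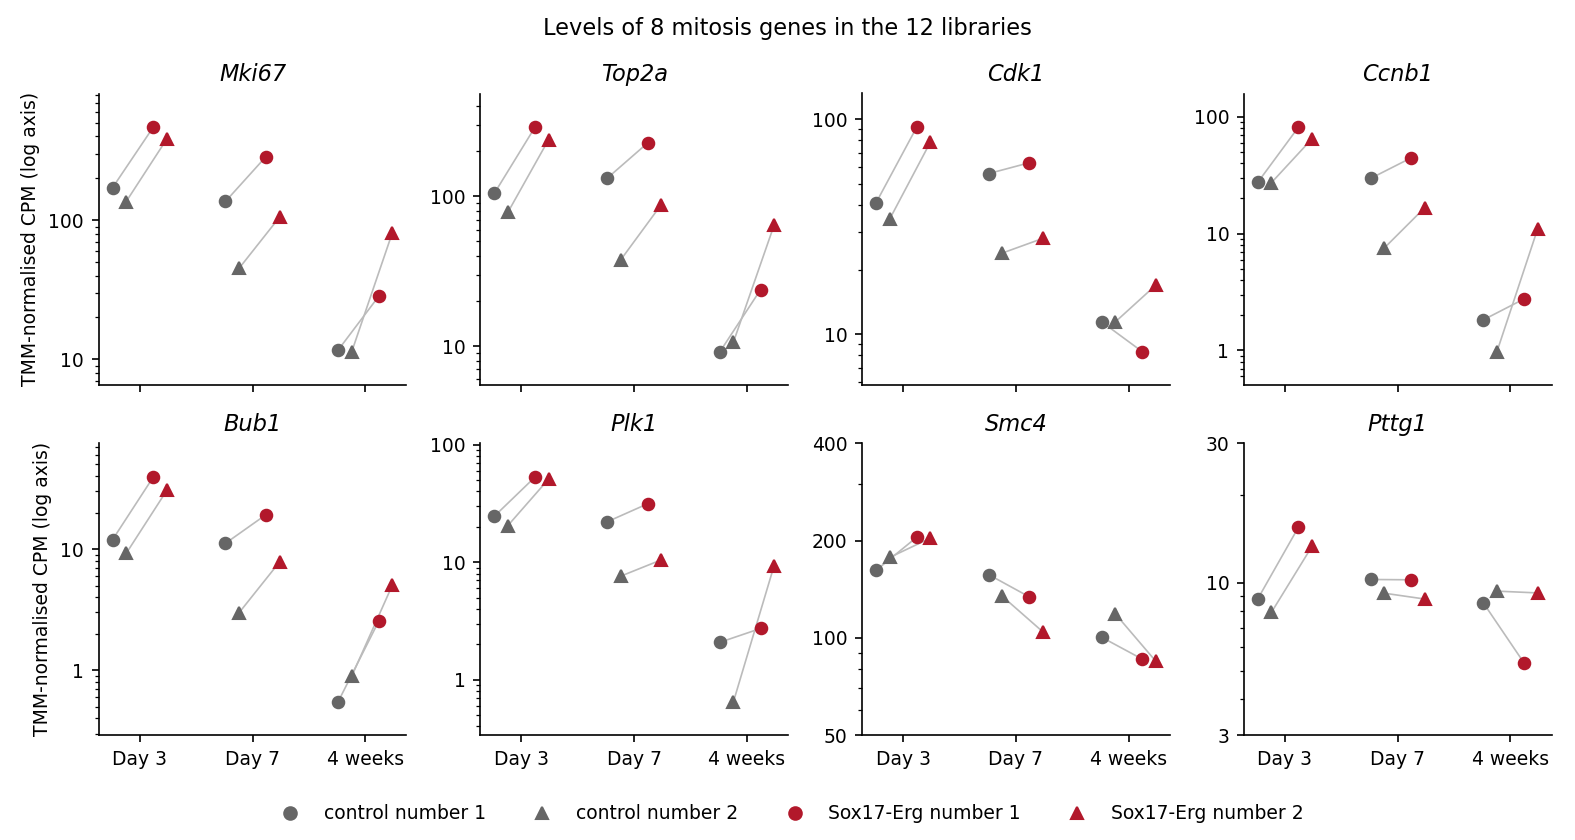
CPM (log axis) of 8 of the genes in all 12 libraries at Day 3, Day 7 and 4 weeks, control in grey and *Sox17*-*Erg* in red, number 1 as circles and number 2 as triangles, with lines joining libraries of the same number. The lines of *Mki67*, *Top2a*, *Ccnb1*, *Bub1* and *Plk1* all slope up, 1 line of *Cdk1* slopes down at 4 weeks, and all lines of *Smc4* slope down at Day 7 and 4 weeks.

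The genes of anaphase onset divided. *Cdc20*, *Ube2c* and *Espl1*, the activator and ubiquitin-conjugating enzyme of the anaphase-promoting complex and separase, were higher as the mean of time points, and *Pttg1*, securin, was not. *Ube2c* had 32.5 and 25.9 against 86.5 and 77.4 CPM at Day 3 and 2.31 and 1.22 against 4.07 and 12.1 at 4 weeks. The groups were apart and the 4-week log2 fold change was 2.15 ± 0.67 (adjusted p = 0.0456), and the call was lost without any Day 3 library, either control library of 4 weeks, or *Sox17*-*Erg* number 2 of 4 weeks, where it was 1.14. *Pttg1*, at chr11:43420250-43426251, had 8.81 and 7.91 CPM in control and 15.5 and 13.3 in *Sox17*-*Erg* libraries at Day 3, then 10.3 and 9.20 against 10.2 and 8.79 at Day 7. At 4 weeks it had 8.52 and 9.35 against 5.31 and 9.22 CPM. Its control level was thus nearly flat over time. The log2 fold changes were 0.78 ± 0.24 (adjusted p = 0.0631, and 0.0242 with the block), -0.03 ± 0.24 and -0.30 ± 0.24. The change in effect from Day 3 to 4 weeks was -1.08 ± 0.34 (adjusted p = 0.136), and -1.13 ± 0.26 with the block (adjusted p = 0.0498).

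Of the 7 mitotic kinesins, 6 were higher as the mean of time points and 7 with the block (22% and 25.5% of all genes). *Kif23*, a kinesin of the central spindle, had 16.3 and 14.1 against 48.7 and 35.5 CPM at Day 3 and 1.23 and 0.569 against 3.01 and 8.85 at 4 weeks. Its 4-week log2 fold change of 2.65 ± 0.78 (adjusted p = 0.0377) was the highest of any member, and the call was lost without the same 7 libraries as for *Ube2c*, with 1.65 without *Sox17*-*Erg* number 2. The 7 spindle and cytokinesis genes had the same counts, 6 and 7, against the same shares. *Anln*, the anillin scaffold of the contractile ring, had 118 and 79.5 CPM in control and 258 and 201 in *Sox17*-*Erg* libraries at Day 3, and 67.9 and 24.1 against 145 and 56.2 at Day 7. At 4 weeks it had 10.9 and 9.35 against 36.0 and 54.3 CPM, so that the lower *Sox17*-*Erg* library was well above both controls. The log2 fold change there was 2.15 ± 0.55 (adjusted p = 0.0211), with 1.79 without *Sox17*-*Erg* number 2 and the call lost without any of the 4 libraries of that time point, and the mean was 1.5 ± 0.31 (adjusted p = 0.00407), the smallest adjusted p of the members.

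The subunits of condensin, which compacts chromosomes, had unlike fold changes, with 3 of 5 higher as the mean of time points and 4 with the block (22% and 25.5% of all genes). *Ncaph*, its kleisin subunit, had 16.1 and 12.2 against 36.2 and 30.5 CPM at Day 3 and 1.83 and 1.87 against 4.92 and 7.89 at 4 weeks. It was higher at 4 weeks by 1.79 ± 0.54 (adjusted p = 0.0404, lost without any 1 of the 8 libraries of Day 3 and 4 weeks, at 1.38 to 2.08) and as the mean by 1.33 ± 0.29 (adjusted p = 0.00561). *Ncapg* and *Ncapd2* were also higher as the mean, and *Smc2*, an ATPase subunit, only with the block (0.74 ± 0.30, adjusted p = 0.0728 and 0.00147). *Smc4*, the partner ATPase, at chr3:69004738-69034623, had 162 and 177 CPM in control and 205 and 204 in *Sox17*-*Erg* libraries at Day 3. At Day 7 it had 157 and 135 against 134 and 104, and at 4 weeks 101 and 119 against 86.0 and 84.7. *Sox17*-*Erg* was above control at Day 3 and below it at Day 7 and 4 weeks, with no overlap at any time. The log2 fold changes were 0.27 ± 0.14, -0.29 ± 0.14 and -0.36 ± 0.14 (adjusted p = 0.247, 0.204 and 0.106), and only the 4-week value passed with the block, at -0.36 ± 0.11 (adjusted p = 0.0408).

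**Figure D5:**
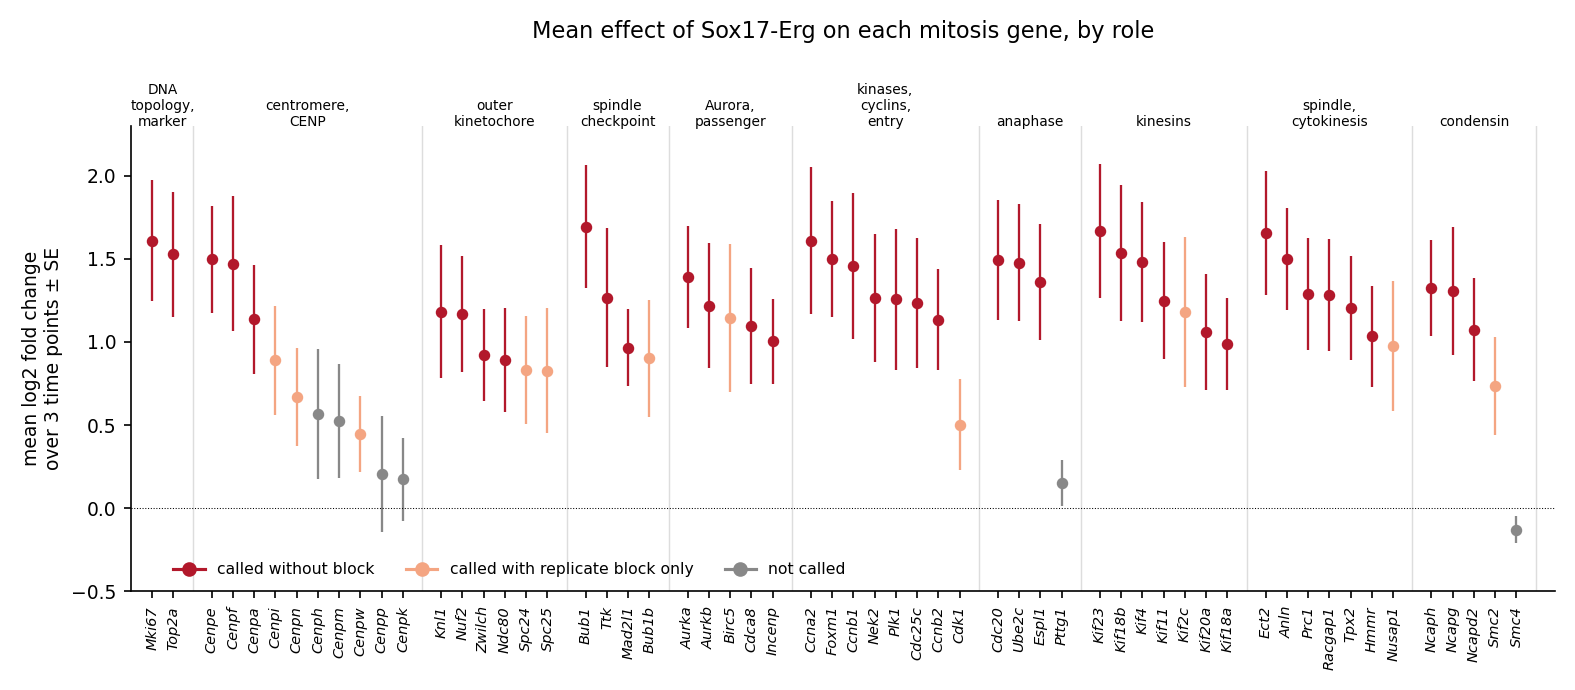
Log2 fold change of *Sox17*-*Erg* over control as the mean of 3 time points (point) with its standard error (bar) for each of the 58 genes, grouped by role, colored by whether the gene passed without a block (red), only with the replicate block (orange) or in neither fit (grey). The 6 grey genes are *Cenph*, *Cenpm*, *Cenpp* and *Cenpk* among the centromere proteins, *Pttg1* and *Smc4*, and *Smc4* at -0.13 is the only value below 0.

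Levels between genes were compared as CPM per kilobase of merged exon. *Smc4* was the most abundant member in control samples throughout, at 32.6, 28.0 and 21.1 CPM per kilobase, where the medians of the 58 were 3.23, 2.70 and 0.447. In *Sox17*-*Erg* samples at Day 3 *Mki67* (42.2) and *Cdc20* (42) were above *Smc4* (39.2), and at 4 weeks *Smc4* (16.4) was again the highest, before *Mki67* (5.46) and *Anln* (4.98). In control samples at 4 weeks *Pttg1* was second, at 4.47.

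The second comparison followed the members over time within each group. In control samples 53 of 58 were lower at 4 weeks than at Day 3 (12.6% of all genes), with a median log2 change of -3.15, and the exceptions were *Cenph*, *Cenpk*, *Cenpp*, *Cenpw* and *Pttg1*. *Ccnb1* fell the most, by 4.24 ± 0.86 on the log2 scale (adjusted p = 0.00796), and *Pttg1* had the only value above 0, 0.09 ± 0.24. In *Sox17*-*Erg* samples 58 of 58 were lower (15.6% of all genes), with a median of -2.71, from *Cdc20* at -3.46 ± 0.65 (adjusted p = 0.0053) to *Pttg1* at -0.99 ± 0.24 (adjusted p = 0.0147). The count in control samples fell without either control library of 4 weeks or control number 1 of Day 3. The count in *Sox17*-*Erg* samples fell without its number 1 of 4 weeks or of Day 3. In each of these fits, which left 1 library in a group, fewer of all genes were lower as well.

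Step by step, edgeR with the filter on low counts called few of these changes. Without the filter it called 1 (control; 4.08% of all genes) and 31 (*Sox17*-*Erg*; 2.88%) lower from Day 3 to Day 7, and 51 (2.51%) and 53 (2.71%) from Day 7 to 4 weeks. From Day 3 to Day 7 it called 0 of 58 lower in control samples (4.06% of all genes; median -0.44; 0 at an unadjusted p under 0.05; 0 by DESeq2). In *Sox17*-*Erg* samples it called 1, *Smc4*, by -0.78 ± 0.15 (adjusted p = 0.0312; 1.38% of all genes; median of the members -1.08). That call was lost without any Day 3 library, *Sox17*-*Erg* number 2 of Day 7 or either *Sox17*-*Erg* library of 4 weeks. From Day 7 to 4 weeks 0 were called in control samples (0.219% of all genes; median -2.75), although 53 had an unadjusted p under 0.05 and DESeq2 called 46 (2.79% of all genes), and 1 was called without control number 2 of Day 7. In *Sox17*-*Erg* samples 0 were called as well (0.671% of all genes; median -1.70), with 52 at an unadjusted p under 0.05 22 by DESeq2 (3.15% of all genes) and 1 without either control library of Day 7.

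Whether the effect of *Sox17*-*Erg* differed between time points was tested as an interaction. Against Day 3, the difference in effect was below 0 in 58 of 58 members at Day 7, with a median of -0.61, and above 0 in 39 at 4 weeks, with a median of 0.27. edgeR called 0 of 58 for either (0.0838% and 3.21% of all genes in either direction), with 3 at an unadjusted p under 0.05 in each, DESeq2 called 0, and 1 was called for 4 weeks without *Sox17*-*Erg* number 2 of that time. With the block *Cenpk* and *Pttg1* passed for 4 weeks, as given above, where 638 of all 15506 genes passed above 0 and 430 below.

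Other genes of the pathway were followed from lists. Of 64 further mitosis genes, 42 (65.6%) were higher as the mean of time points, against 22% of all genes, and 0 were lower. At the single time points 6 (9.38%), 1 (1.56%) and 6 (9.38%) were higher, in order of time, near or below the 7.19%, 9.48% and 11.9% of all genes, and the medians were 1.07, 0.45 and 0.99. *Troap*, a protein of the spindle poles, was higher at 4 weeks by 2.83 ± 0.74 (adjusted p = 0.0231), *Sgo2a*, a protector of centromeric cohesion, by 2.39 ± 0.68 (adjusted p = 0.0329), and *Ska2*, of the outer kinetochore, at Day 7 by 1.0 ± 0.27 (adjusted p = 0.0344). The core subunits of the anaphase-promoting complex, 15 in number, had 1 higher (*Cdc27*, 0.31 ± 0.09, adjusted p = 0.0207) and 4 lower as the mean (*Anapc11*, *Anapc13*, *Anapc15* and *Anapc16*). The 4 lower were 26.7% of the list, near the 20.3% of all genes. *Anapc15* was the lowest at -0.76 ± 0.14 (adjusted p = 0.00239). Of 10 cohesin genes, 3 were higher as the mean, *Rad21*, *Wapl* and *Pds5a*, by no more than 0.36, near the share of all genes (22%). At Day 3, 3 of 10 (30%) were higher, *Smc1a*, *Rad21* and *Pds5a*, against 7.19% of all genes.

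Of 15 regulators of the mitotic wave, 4 (26.7%) were higher as the mean of time points and 3 (20%) lower, near the 22% and 20.3% of all genes, so the counts set the list apart in neither direction. *Mybl2*, which encodes B-Myb, was higher at Day 3 by 1.6 ± 0.42 (adjusted p = 0.0406) and as the mean by 1.04 ± 0.25 (adjusted p = 0.00923). *Lin9*, a MuvB subunit, was higher by 0.92 ± 0.22 as the mean (adjusted p = 0.00908), as was *Tfdp1*, the E2F partner, by 0.57 ± 0.10 (adjusted p = 0.00209), and *Rbbp4* by 0.23 ± 0.06 (adjusted p = 0.00883). *Rbl2*, which encodes the p130 pocket protein of the DREAM complex in resting cells, was lower at Day 7 by -0.69 ± 0.15 (adjusted p = 0.0133) and at 4 weeks by -0.56 ± 0.15 (adjusted p = 0.0245). *Tfdp2* was lower at 4 weeks by -1.0 ± 0.24 (adjusted p = 0.0169), and *Lin52* as the mean by -0.56 ± 0.13 (adjusted p = 0.00732).

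Some members share sequence with other genes, and reads could be split between them. The share of 31-base words found in another gene was 27.7% for *Ccnb1* (most with *Ccnb1-ps*), 25.5% for *Cdc20* (*Gm7856*) and 14.8% for *Plk1* (*Plk-ps1*). Exons of a gene on the opposite strand covered 29.3% of *Kif20a*, 22.8% of *Ube2c* and 15.1% of *Kif4*. The kit was stranded, and the strand setting of the counting is not given in the sources used here, so the levels of these genes are less certain.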

How the data were processed

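RNA of 12 neonatal cardiac fibroblast cultures was sequenced as stranded mRNA with paired reads. Per the labels, reads were demultiplexed with bcl2fastq 2.20.0 and quantified with Salmon against mm10, and DESeq2 was used by the authors. BBDuk had been run before quantification to trim GC-rich sequence. The Salmon version and annotation are not given in the sources used here. The authors deposited estimated counts per Ensembl gene as whole numbers, without scaling for library size.

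The quasi-likelihood test of edgeR 4.0.16 (R 4.3.3) was run on these counts with TMM factors and 1 mean for each of the groups, which left 6 residual degrees of freedom, on the 15506 genes that filterByExpr kept (min.count 10, min.total.count 15), and p-values were adjusted by Benjamini-Hochberg over all genes tested. A gene was called at an adjusted p under 0.05. Counts at an unadjusted p under 0.05 are given for the members alone, without a share of all genes, and are not calls. Each standard error was derived from the test as the absolute log2 fold change divided by the square root of the F statistic. It is not an output of the fit itself. Groups came from the sample labels. The script was tested on simulated data. Alternatives were DESeq2 1.42.0, its size factors, no filter, single time points, the replicate number as a block, and leaving out each library or the Day 7 libraries. Single time points, leaving out Day 7 and the block with crossed numbers were chosen after seeing the data.

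Replicate numbers come from the sample titles. Across 15506 genes, which are not independent, deviations of same-numbered control and *Sox17*-*Erg* libraries correlated by 0.19, 0.30 and 0.17 at Day 3, Day 7 and 4 weeks, so numbers were taken as pairs within a time point. Same-numbered libraries of Day 3 and Day 7 correlated as well, by 0.17 in control and 0.22 in *Sox17*-*Erg* samples. Between 4 weeks and the earlier days the values within a group were -0.11 to -0.049. In that block each pair shares 1 term. The block adds 1 term for each of the 3 time points, so fewer than the 6 residual degrees of freedom of the main fit remain. Its standard errors and p-values rest on that smaller number.

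The 58 members and all lists were chosen with earlier results of these data known. Members described in full were *Mki67*, *Top2a*, *Cdk1*, *Ccnb1*, *Plk1*, *Aurkb*, *Cenpa*, *Birc5* and *Foxm1*, the member of each role with the smallest adjusted p for the mean, and those against the sign of most members at 2 or more time points. Other names in the text were chosen after their values were seen. Symbols and positions come from the GENCODE annotation (35422 of 35727 genes matched) and promoter windows from RefSeq, GRCm38.p6.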

Additional observations from a re-analysis of the deposited data

How the results depend on the processing

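With 2 libraries a group, standard errors are imprecise and low members near 1 CPM most so. Leaving out a library left 1 in its group and also changed the number of all genes called. Counts from those fits thus do not describe the members alone. Of the single-gene values compared, 1965 kept direction and call, 147 gained and 132 lost the call, and 16 changed sign, each on leaving out 1 library. DESeq2 size factors changed no count of the members higher, and no scaling moved the median of all genes by over 0.0319.
Members higher at Day 3 (0) were 11 by DESeq2 (9.37% of all genes), 52 without a filter (5.91%) and 1 with a replicate block over all libraries (7.93%). They were 41 with the replicate block within time points (12.7%). Without the Day 7 libraries 15 members and 1153 of 15233 genes were higher. With each time point fitted alone 48 members and 1261 of 14335 genes were. At Day 7 (0) they were 8 without a filter, where 1678 of 25680 genes were higher, and 12 with the replicate block (13.8% of all genes). At 4 weeks (13) they were 32 by DESeq2 (13.1% of all genes) and 37 with the replicate block (15.5%). Without a filter 44 members and 2048 of 25680 genes were higher, and without Day 7 31 members and 1948 of 15233 genes. Over time, no filter gave 1 (control, Day 3 to 7), 51 (control, Day 7 to 4 weeks), 31 and 53 (*Sox17*-*Erg*), and DESeq2 gave 46 and 22 for Day 7 to 4 weeks. The interaction at 4 weeks had 1 without a filter, where 732 of 25680 genes passed above 0 and 447 below. It had 2 with the replicate block, where 638 and 430 of 15506 genes did. Since 4-week control deviations ran against Day 3 and Day 7, a replicate block was also fitted with the 4-week numbers crossed. It gave 30, 2 and 27 members higher in order of time, with 1712, 1840 and 2140 of all 15506 genes higher. It also gave 39, 9 and 25 lower over time, and 2 interactions.
Leaving out each library gave 0 to 4 members higher at Day 3, 0 to 3 at Day 7, 0 to 21 at 4 weeks and 19 to 52 for the mean. Lower from Day 3 to 4 weeks were 19 to 54 in control and 9 to 58 in *Sox17*-*Erg* samples, other time steps 0 to 1, and interactions 0 to 1. Median log2 fold changes were 1.07 to 1.45, -0.041 to 1.64 and 0.69 to 2.10. Ranges that crossed 0 at Day 7 were *Cdk1* -0.51 (also -0.30) to 0.90, *Ccnb1* -0.16 to 2.01, *Plk1* -0.50 (also -0.066) to 1.44, *Birc5* -0.28 to 2.07, *Nuf2* -0.023 to 1.74, *Ube2c* -0.0092 to 1.54, *Cenpk* -0.36 to 0.24 (also 0.11) and *Pttg1* -0.15 to 0.031 (also 0.023). At 4 weeks they were *Cdk1* -0.49 to 0.56 and *Pttg1* -0.78 to 0.039, and for the mean *Cenpk* -0.062 to 0.30 and *Pttg1* -0.016 to 0.24. The causes were not tested.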
